A study of Danio rerio with 12 samples.

Results

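Apolipoproteins are the protein part of the particles that carry lipids in blood and yolk. The 9 genes described here were chosen by symbol, with earlier results of these data known. They are the very long *apobb.1* and 8 short apolipoprotein genes, *apoa1a*, *apoa1b*, *apoa2*, *apoa4b.1*, *apoea*, *apoeb*, *apoc1*, and *apoc2*. All 9 were found among the 31778 genes of both count tables, and all 9 passed the filter on low counts in each comparison.

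The study separated zebrafish larvae into a membrane-bound (MB) and a high-speed (HS) fraction and sequenced the polyadenylated RNA of each, to learn which mRNAs are held at membranes. There were 4 groups of 3 libraries, WT MB, WT HS, *chchd4a*-/- MB, and *chchd4a*-/- HS, all at 5 dpf and of strain AB. Every library carries the transgene *Tg(Xla.Eef1a1:mlsEGFP)cms1*, a mitochondrial EGFP under a promoter that is active in most tissues. WT larvae came from crosses of +/+ fish, whereas -/- larvae came from +/- crosses and were picked at 4 dpf under a fluorescence microscope by their abnormal mitochondria. The gene, which the labels call *mia40a*, encodes an import receptor of the mitochondrial intermembrane space. Each fractionation used many pooled larvae. MB is the pellet formed at 14000g in 15 min, and by the study's methods it holds mitochondria together with endoplasmic reticulum (ER). HS is the pellet formed from the remaining supernatant at 100000g in 60 min, with free polysomes and also fragments of ER. Thus neither fraction is a pure compartment.

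As secreted proteins, apolipoproteins are made by ribosomes that dock on the ER. ApoB is the scaffold of the large, triglyceride-rich lipoproteins and stays with its particle, while the ApoA, ApoC, and ApoE proteins move between particles. In the fish larva, the yolk syncytial layer, the liver, and the intestine are the main sources of lipoproteins. RNA here came from whole larvae, so more cells of a type and more RNA per cell cannot be told apart.

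Gene counts summed to 45621399 to 96059775 per library, and the lowest count of any of the 9 genes was 2369. Levels are given in CPM, the counts of a gene relative to the total of its library, after TMM scaling of all 12 libraries. WT replicate 1 stood apart. In HS it had the lowest level of all 9 genes among the WT HS libraries and a spike-in share of 30.03% against 9.82% and 14.2% in the others, and in MB it had the lowest level of 8 of the 9. The numbers of calls are therefore also given without it, and the values of single genes in part. In HS of the mutant, replicate 2 had the highest level of all 9 genes. The mutated gene itself had 3.80, 12, and 12.4 CPM in WT HS and 17.5, 11.4, and 27.0 CPM in mutant HS, with groups that overlapped, and 4.57, 5.27, and 5.46 CPM in WT MB against 6.68, 7.89, and 8.18 CPM in mutant MB. How the mutation alters this mRNA is not given in the labels, so its level does not check them. As a check of the fractions, 13 of 13 mtDNA-encoded mRNAs were MB-enriched in WT and 7 of 13 in the mutant, with *mt-co1* at log2 2.82 and 2.33. Of 59 cytosolic ribosomal protein mRNAs, 37 were HS-enriched in WT and 58 in the mutant, with *rpl4* at -1.38 and -2.39. Together the 9 genes took 0.239 to 0.620% of gene counts in WT HS, 0.956 to 1.90% in WT MB, 0.720 to 1.61% in mutant HS, and 1.83 to 2.44% in mutant MB.

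**Figure D1:**
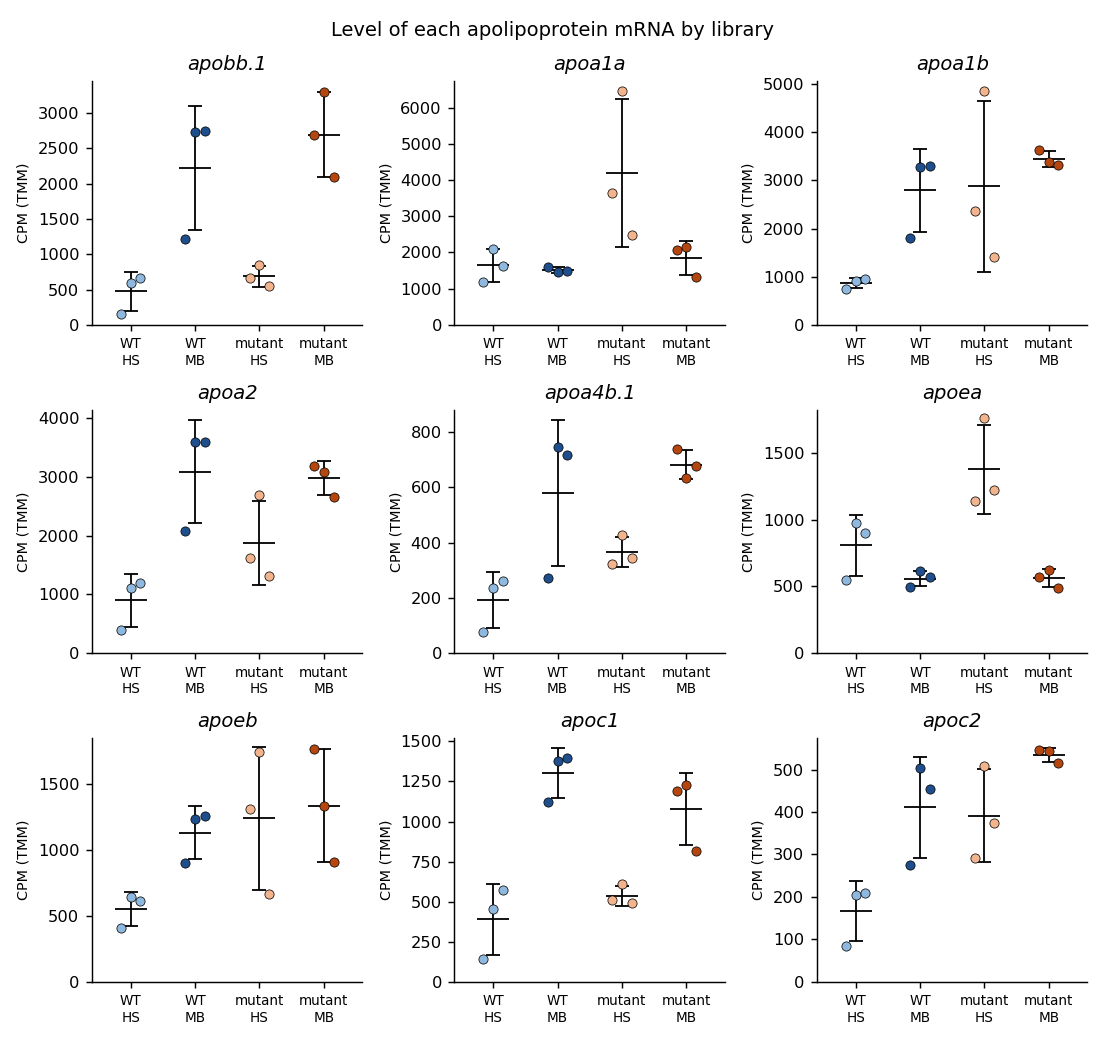
Level of each apolipoprotein mRNA in CPM (vertical axis, from 0) in the 4 groups, with 1 point per library (replicates 1 to 3 from left to right) and the mean with its SD in black. In *apobb.1*, the 3 MB libraries lie above the 3 HS libraries in both genotypes, and in *apoea* mutant HS, at 1142 to 1762 CPM, lies above every other group.

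In WT, 7 of the 9 mRNAs lay higher in every MB library than in every HS library, and 5 of these passed the test as MB-enriched: *apobb.1*, *apoa1b*, *apoa2*, *apoeb*, and *apoc1*. How many of all genes had libraries apart in this way was not counted, here or in the other comparisons. None was HS-enriched. Over all 23733 genes tested, 12.4% passed as MB-enriched and 13.3% as HS-enriched. The median log2 MB over HS of the 9 was 1.60, beside 0.08 for all genes. The exceptions were *apoa1a* and *apoea*, whose fractions overlapped.

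*apobb.1* (ENSDARG00000022767), the ApoB scaffold, had 158, 594, and 670 CPM in replicates 1, 2, and 3 of WT HS. The WT MB libraries held 1209.5, 2732, and 2741 CPM. Both fractions were lowest in replicate 1, and yet the lowest MB library lay above the highest HS library. The log2 enrichment was 2.24 (SE 0.59), a 4.71-fold excess in MB (adjusted p = 0.0325, edgeR quasi-likelihood test with Benjamini-Hochberg adjustment over all genes), and 99.2% of the tested genes had a log2 MB over HS at or below it. Among the 9 genes, this was the highest value in WT. When single WT libraries were left out, the log2 of *apobb.1* ran from 1.82 to 2.54.

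*apoa1a* and *apoa1b* both encode ApoA-I, the main protein of high-density lipoproteins and an activator of the enzyme that esterifies cholesterol in plasma. *apoa1b* (ENSDARG00000101324) had 743, 907, and 956 CPM in WT HS and 1804, 3275, and 3299.55 CPM in WT MB. The fractions were well apart, with log2 1.69 (SE 0.32) and an edgeR adjusted p of 0.0129. *apoa1a* (ENSDARG00000012076) had 1184, 2107, and 1628 CPM in WT HS and 1597, 1448, and 1484 CPM in WT MB. Its MB libraries fell within the range of the HS libraries, and the log2 of -0.12 (SE 0.28) did not pass (edgeR adjusted p = 0.777; 95% interval -0.66 to 0.43). So this pair of genes for the same apolipoprotein differed in WT, in that only *apoa1b* passed the test, although the difference between the genes was not itself tested.

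*apoa2* (ENSDARG00000015866), a second protein of high-density lipoproteins, had 389, 1109.9, and 1201 CPM in WT HS and 2078, 3603, and 3593 CPM in WT MB, a log2 of 1.78 (SE 0.47; edgeR adjusted p = 0.0330). *apoa4b.1* (ENSDARG00000040298), of the ApoA-IV family that is known from intestinal lipoproteins, had 75.7, 236, and 262 CPM in HS and 274, 746, and 716 CPM in MB. Here the lowest MB library was only just above the highest HS library, and the log2 of 1.60 (SE 0.56) missed the threshold (edgeR adjusted p = 0.0708). Its estimated counts differed from a whole number by more than 0.001 in 12 of 12 libraries and those of *apoc2* in 11. For *apoa1b* this was so in 4 libraries, and for the other 6 genes in 0. Counts of this kind can arise where reads are shared between similar sequences, so the levels of these 3 genes are less certain.

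*apoea* and *apoeb* encode ApoE, the ligand by which receptors of the LDL receptor family take up lipoproteins. *apoeb* (ENSDARG00000040295) had 409, 643, and 613 CPM in WT HS and 904, 1236, and 1262 CPM in WT MB, with log2 1.04 (SE 0.28; edgeR adjusted p = 0.0336). *apoea* (ENSDARG00000102004) had 551, 976, and 897 CPM in WT HS and 495, 612, and 572 CPM in WT MB. Its fractions overlapped, at a log2 of -0.53 (SE 0.28; edgeR adjusted p = 0.193), and MB was below HS in each of the 3 replicates.

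*apoc1* (ENSDARG00000092170), which in mammals slows the uptake of lipoprotein remnants, had 142, 453, and 574 CPM in WT HS and 1120.0, 1380.3, and 1399 CPM in WT MB. Its log2 was 1.74 (SE 0.49; edgeR adjusted p = 0.0386). *apoc2* (ENSDARG00000092155), the activator of lipoprotein lipase, had 84.6, 203, and 209.5 CPM in HS and 275, 503, and 454 CPM in MB. Although its fractions did not overlap, the log2 of 1.31 (SE 0.41) just missed the threshold (edgeR adjusted p = 0.0520).

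With the replicate number as a block, *apoa4b.1* (log2 1.66) and *apoc2* (log2 1.38) passed as well, with edgeR adjusted p of 0.00342 and 0.00616. So 7 of 9 were called on the MB side, beside 5079 of 23733 genes. DESeq2 also called 7 on the MB side, beside 3682 of 23733 genes. *apoa4b.1* and *apoc2* were among these 7 (DESeq2 adjusted p = 0.0199 and 0.0133). Without replicate 1 of both fractions, all 9 passed, 7 on the MB side and *apoa1a* (log2 -0.34) and *apoea* (log2 -0.66) on the HS side (edgeR adjusted p = 0.0498 and 0.000637), while 16219 of 23143 genes were called in all. Leaving out single WT libraries gave 0 calls without HS replicate 2, MB replicate 2, or MB replicate 3, 2 without HS replicate 3, 4 without MB replicate 1, and 8 without HS replicate 1. Calls over all genes moved as well, with 13627 of 23579 without HS replicate 1 and 4072 of 23341 without MB replicate 1. They were 3304 of 23434 without HS replicate 3, 2144 of 23506 without HS replicate 2, and 1 of 23334 without MB replicate 3. *apoa1b* passed in 3 of these 6 fits, and *apobb.1*, *apoa2*, *apoeb*, and *apoc1* in 2 each. Without MB replicate 2, edgeR called 0 of 23283 genes. With spike-in totals, all 9 passed on the MB side, as did 17805 of 23733 genes, and the median log2 of all genes was 2.62.

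In *chchd4a*-/- larvae, the 9 mRNAs were spread over both sides. The test called 3 as MB-enriched, *apobb.1*, *apoc1*, and *apoa4b.1*, and 2 as HS-enriched, *apoa1a* and *apoea*. Over all 23854 genes tested, 17% were MB-enriched and 20% HS-enriched. The median of the 9 was 0.38, beside -0.01 for all genes. Only *apobb.1* had a log2 of at least 1 on the MB side. Among all 23854 genes, 2810 were called with a log2 of at least 1. Both calls on the HS side depend on the scaling. With library totals, 6 of the 9 were MB-enriched and 0 HS-enriched. Of all 23854 genes, 12524 were then MB-enriched and 1362 HS-enriched, with a median log2 of 0.81. Under this scaling *apoa1a* and *apoea* had log2 -0.42 and -0.53 (edgeR adjusted p = 0.325 and 0.0986). With spike-in totals, 7 were MB-enriched and 0 HS-enriched, beside 18108 and 35 of all 23854 genes.

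*apobb.1* had 669, 845, and 553 CPM in replicates 1, 2, and 3 of mutant HS and 2694, 3299, and 2091 CPM in mutant MB. The fractions lay far apart, at log2 1.90 (SE 0.31), a 3.73-fold excess in MB (edgeR adjusted p = 0.00253). Within replicates, the log2 ratio was 2.01, 1.97, and 1.92. *apoc1* had 513, 608, and 492 CPM in HS and 1189, 1228, and 818 CPM in MB, with log2 0.94 (SE 0.27; edgeR adjusted p = 0.0236). *apoa4b.1* had 324, 427, and 345 CPM in HS and 738, 633, and 677 CPM in MB, with log2 0.84 (SE 0.24; edgeR adjusted p = 0.0250). For these genes, as for *apoc2*, every MB library exceeded every HS library.

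*apoa1a* had 3645, 6469.6, and 2477 CPM in mutant HS and 2067, 2152, and 1316 CPM in mutant MB. Every HS library lay above every MB library, with a log2 of -1.26 (SE 0.41; edgeR adjusted p = 0.0379), a 2.40-fold excess in HS. This call was lost in 5 of the 6 fits that left out a library, with log2 from -1.55 to -0.77 (highest edgeR adjusted p 0.133), and held only without HS replicate 3. *apoea* had 1142, 1762, and 1226 CPM in HS and 568, 626, and 489.5 CPM in MB. It too was higher in all HS libraries, by 2.57-fold, at log2 -1.36 (SE 0.28; edgeR adjusted p = 0.00675). On scaling by spike-in totals, these log2 values were 0.51 and 0.51, beside a median of 1.92 for all genes. Relative to that median they were -1.42 and -1.42.

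*apoa1b*, *apoeb*, *apoa2*, and *apoc2*, which lay above 1 in WT, did not pass in the mutant. *apoa1b* had 2357, 4861, and 1410.4 CPM in HS and 3624, 3382, and 3321 CPM in MB. The MB libraries were close together, while the HS libraries spanned a 3.45-fold range that reached above them, and the log2 was 0.18 (95% interval -0.68 to 1.04; edgeR adjusted p = 0.765). *apoeb* had 1314, 1744, and 667 CPM in HS and 1766, 1337, and 913 CPM in MB. Its fractions overlapped throughout, at log2 0.04 (95% interval -0.75 to 0.82; edgeR adjusted p = 0.948). *apoa2* had 1622, 2686, and 1321 CPM in HS and 3192, 3089.6, and 2656 CPM in MB, with log2 0.59 (SE 0.34; edgeR adjusted p = 0.186). *apoc2* had 291, 509, and 374 CPM in HS and 545, 543, and 515 CPM in MB, and although the libraries did not overlap, the log2 was 0.38 (SE 0.27; edgeR adjusted p = 0.289).

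The number called in the mutant rose to 7 without HS replicate 2 (6 on the MB side) and fell to 2 without replicate 1 of either fraction and to 3 without HS replicate 3, without MB replicate 2, or with all 12 libraries in the fit. Over all genes, 11939 of 23573 were called without HS replicate 2, against 8843 of 23854 with all 6 mutant libraries. Without replicate 1 of HS or of MB, 5014 of 23679 and 5638 of 23704 genes were called. Without HS replicate 3 or MB replicate 2, these were 7656 of 23611 and 5028 of 23324. With all 12 libraries in the fit, 8188 of 23452 genes were called. *apobb.1* and *apoea* passed in each of the 6 fits that left out a library, *apoa4b.1* in 3, *apoc1* in 2, and *apoa1a* in 1.

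**Figure D2:**
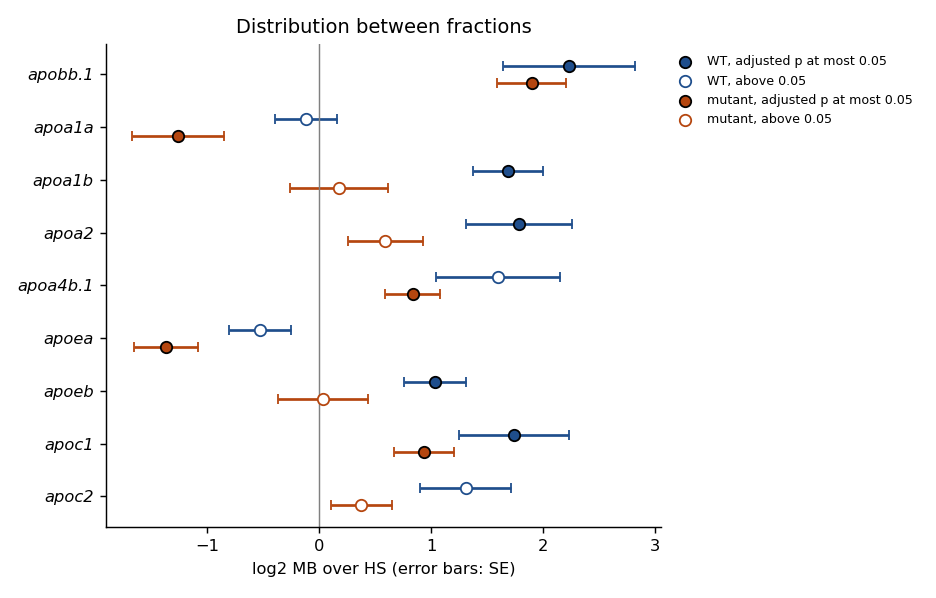
Log2 MB over HS (horizontal axis) with its SE for each gene in WT (blue) and mutant (orange), from 3 libraries per fraction, where filled points passed an adjusted p of 0.05. All 9 mutant points lie to the left of the WT points, by the least for *apobb.1* (2.24 in WT and 1.90 in the mutant).

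The difference in log2 MB over HS between genotypes, mutant minus WT, was below 0 for all 9 genes, with a median of -0.86 beside -0.07 for all genes. It ran from -1.43 (SE 0.56) for *apoa1b* to -0.26 (SE 0.66) for *apobb.1*. None passed the test, for which the lowest edgeR adjusted p among the 9 was 0.265, and over all 23452 genes 0% were called higher and 0% lower. At an unadjusted p under 0.05, *apoa1b* alone was counted, beside 1964 of all genes above 0 and 1410 below 0. DESeq2 also called 0 of the 9, although it called 810 genes in all. With the replicate block, 0 of the 9 were called (lowest edgeR adjusted p 0.138), and 796 genes were called in all. In that fit 7 of the 9 had an unadjusted p under 0.05, but the number of all genes under it was not counted. Values below 0 were found as well for 59 of 59 cytosolic ribosomal protein genes (median -0.93), 13 of 13 mtDNA-encoded proteins (median -1.34), and 17 of 20 liver plasma proteins (median -0.37). Without WT HS replicate 1, the value for *apobb.1* was 0.12, and with library totals it was 0.027, so its sign is not settled.

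Within HS, all 9 mRNAs had a log2 mutant over WT above 0, and 4 passed the test: *apoa1b*, *apoa1a*, *apoc2*, and *apoeb*. Among all 23452 genes, 7.25% were called higher and 12% lower. The median of the 9 was 1.06, beside 0.06 for all genes. *apoa1b* rose by 1.73 (SE 0.40; edgeR adjusted p = 0.0115), as its HS libraries held 743 to 956 CPM in WT and 1410.4 to 4861 CPM in the mutant. *apoa1a* rose by 1.36 (SE 0.36; edgeR adjusted p = 0.0206), *apoc2* by 1.24 (SE 0.35; edgeR adjusted p = 0.0280), and *apoeb* by 1.16 (SE 0.36; edgeR adjusted p = 0.0403). For 7 of the 9, every mutant HS library lay above every WT HS library, a separation that was not counted over all genes. The values for *apoa2*, 1.06, and *apoea*, 0.77, did not pass (edgeR adjusted p = 0.0865 and 0.0627), nor did that of *apoa4b.1*, 0.93 (edgeR adjusted p = 0.144). The exceptions, with overlapping libraries, were *apobb.1*, at 0.54 (SE 0.46; 95% interval -0.37 to 1.45), and *apoc1*, at 0.46 (SE 0.39; 95% interval -0.30 to 1.23).

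Other genes of lipoprotein-making cells were also high in mutant HS. The 12 intracellular hepatocyte markers summed to 1258 to 2797 CPM in WT HS and 3726 to 4814 CPM in mutant HS, and 1 of 12 was called higher. One of this list, *gc*, encodes a plasma protein. The 9 enterocyte markers summed to 851 to 1981 CPM in WT HS and 2376 to 3087 CPM in mutant HS, and 1 of 9 was called higher. Neither list had a gene at 0. The 20 liver plasma proteins overlapped, at 1636 to 1977 CPM and 1662 to 2870 CPM, with 1 of 20 called higher. The part of these cell types in the result was not tested. WT and mutant counts also came in separate tables, and genotype and any separate preparation of the libraries cannot be told apart.

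The calls in HS depend on the test, the shared fit, and single libraries. In the shared fit, DESeq2 called 6 of the 9, beside 2699 of 23452 genes called higher. *apoa2* and *apoea* were among the 6 (DESeq2 adjusted p = 0.0340 and 0.0144). When the 6 HS libraries were fitted alone, 0 of the 9 and 0 of 20985 genes passed in edgeR, and *apoa1b* kept a log2 of 1.74 (adjusted p = 0.0718). In that fit 6 of the 9 had an unadjusted p under 0.05, which was not counted over all genes. Without WT HS replicate 1 or mutant HS replicate 2, 1 of the 9 was called, and without mutant HS replicate 1, 2 were. Over all genes, 3446 of 23381 were called without WT HS replicate 1 and 3677 of 23327 without mutant HS replicate 2. Without mutant HS replicate 1, 1932 of 23385 were called. Without replicate 1 of both WT fractions, 2 of the 9 and 3749 of 23049 genes were called. *apoa1a* (log2 1.23) and *apoeb* (1.04) then did not pass (edgeR adjusted p = 0.0668 and 0.104). *apoa1b* passed in each of the 12 fits that left out 1 library, *apoc2* in 10, *apoa1a* in 9, and *apoeb* in 4.

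Within MB, no difference between the genotypes was detected for any of the 9 genes. The log2 mutant over WT lay between -0.27 (*apoc1*) and 0.38 (*apoc2*), and 0 of the 9 passed in edgeR or DESeq2, or at an unadjusted p under 0.05. Among all 23452 genes, only 0.0128% were called higher and 0.0256% lower. The intervals remain wide, as for *apobb.1*, at 0.27 (95% interval -0.63 to 1.18), and *apoa1b*, at 0.30 (95% interval -0.46 to 1.07). For *apoa1b* and *apoc2*, every mutant MB library lay above every WT MB library, but by a narrow gap. The highest WT and lowest mutant MB libraries held 3299.55 and 3321 CPM of *apoa1b* and 503 and 515 CPM of *apoc2*.

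**Figure D3:**
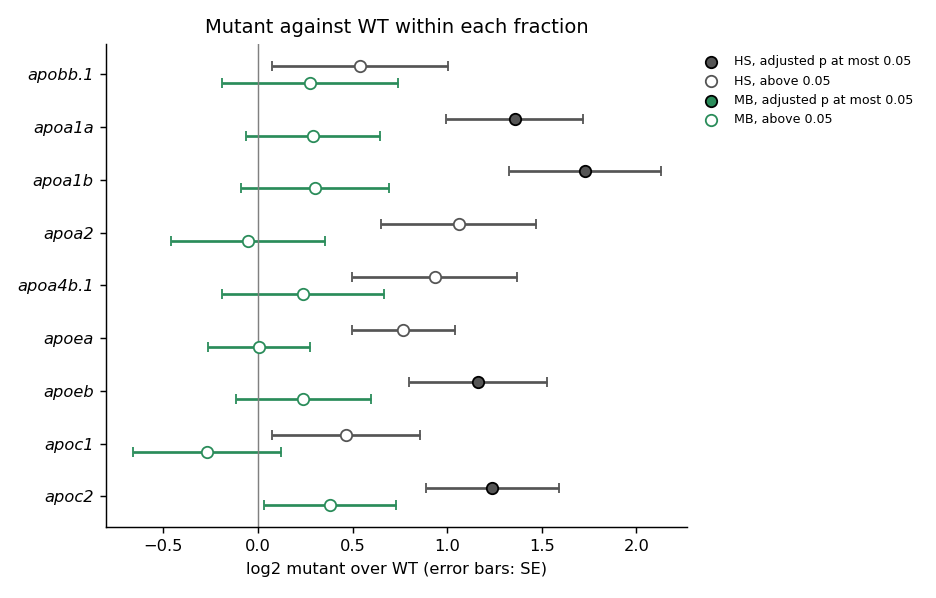
Log2 mutant over WT (horizontal axis) with its SE for each gene in HS (grey) and in MB (green), where filled points passed an adjusted p of 0.05. All 9 HS points lie above 0, from 0.46 to 1.73, and the MB points lie between -0.27 and 0.38.

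The order of the 4 groups therefore differed from gene to gene. For *apobb.1*, the means rose from WT HS (474 CPM) and mutant HS (689 CPM), which overlapped, to WT MB (2227 CPM) and mutant MB (2695 CPM), which overlapped as well, with a gap between the fractions. *apoc1* had the same gap, at 390 and 537 CPM in HS against 1078 and 1299.8 CPM in MB. For *apoa1b* and *apoeb*, WT HS stood alone at the bottom (869 and 555 CPM), and each of the other groups overlapped with the next in order of the means. Mutant MB of *apoa1b* lay wholly, though narrowly, above WT MB. For *apoa1a* and *apoea*, mutant HS stood alone at the top (4197 and 1376 CPM), and the rest overlapped. *apoa2*, *apoa4b.1*, and *apoc2* were lowest in WT HS without overlap with the next group, mutant HS.

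The long mRNA was then set against the short ones. In each library, the log2 CPM of 1 short gene was subtracted from that of *apobb.1*, and the HS mean of this difference was subtracted from the MB mean, so that library scaling and transcript length drop out. The excess of *apobb.1* in MB was above 0 for 8 of 8 short genes in both genotypes. Its median was 0.88 (1.84-fold) in WT and 1.499 (2.83-fold) in the mutant. The count of 8 follows from the log2 MB over HS of *apobb.1*, which was higher than that of every short gene in both genotypes. All of these differences also share the same *apobb.1* levels, so they are not 8 separate results.

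The short genes did not behave alike in this contrast. In WT, the excess was smallest relative to *apoc1* (0.43) and *apoa2* (0.49) and largest relative to *apoea* (2.88) and *apoa1a* (2.47). The libraries of the fractions overlapped for *apoc1* and *apoa1b* and were apart for the other 6 genes. In the mutant, they were apart for all 8, with an excess from 0.98 relative to *apoc1* to 3.24 relative to *apoea*.

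Against the mean log2 CPM of the 8 short genes, *apobb.1* stood at -0.94, -0.11, and 0.04 in replicates 1, 2, and 3 of WT HS and at 0.54, 1.11, and 1.14 in WT MB. In the mutant it stood at -0.58, -0.88, and -0.60 in HS and at 0.99, 1.35, and 0.99 in MB. Every MB library lay above every HS library in both genotypes. The MB mean exceeded the HS mean by 1.27 in WT and by 1.80 in the mutant. The WT value was 0.97 without HS replicate 1. With the median level of the short genes in each library instead, these values were 1.41 and 2.06, although that median also depends on transcript lengths, through the genes that fall in its middle. Whether the genotypes differ was not tested.

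**Figure D4:**
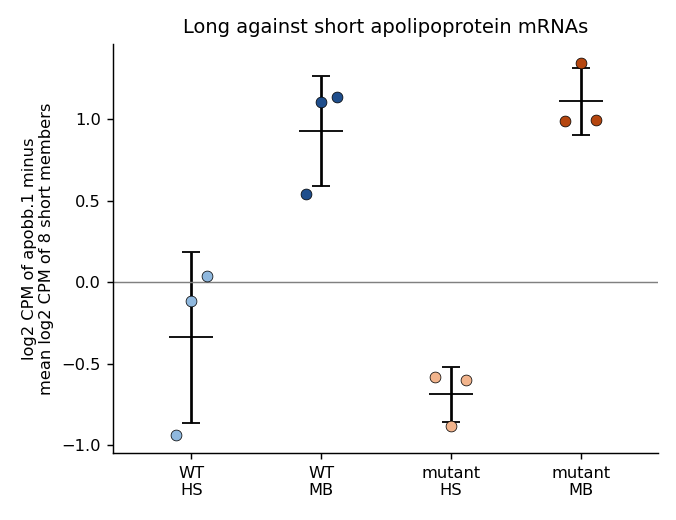
Log2 CPM of *apobb.1* minus the mean log2 CPM of the 8 short genes (vertical axis) in each library of the 4 groups, with the mean and SD in black. The HS libraries lie at -0.94 to 0.04 and the MB libraries at 0.54 to 1.35.

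The other *apob* genes were on the same side. *apoba* had a log2 MB over HS of 2.61 (SE 0.39; edgeR adjusted p = 0.00762) in WT and 2.17 (SE 0.34; edgeR adjusted p = 0.00235) in the mutant. *apobb.2*, at 0.344 to 7.32 CPM a scarce mRNA, had 2.82 (SE 0.34; edgeR adjusted p = 0.00552) and 2.62 (SE 0.45; edgeR adjusted p = 0.00321). Thus the 3 ApoB genes ran from 2.24 to 2.82 in WT and from 1.90 to 2.62 in the mutant. The other 17 apolipoprotein genes ran from -0.53 (*apoea*) to 1.99 (*apoc4*) in WT and from -1.36 (*apoea*) to 1.43 (*apoa4a*) in the mutant. The groups did not overlap in either genotype. The same larvae and libraries underlie all of these values, and no test was made of the groups.

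Of the 11 apolipoprotein genes beyond the 9, 9 were MB-enriched in WT and 5 in the mutant, with 0 HS-enriched (medians 1.61 and 0.95). *apoa4a* (log2 1.61 in WT and 1.43 in the mutant), *apom* (1.68 and 1.07), a carrier of sphingosine-1-phosphate, and *apof* (0.82 and 0.95) passed in both, as *apoba* and *apobb.2* did. *apoa4b.3* (1.35 and 0.59), *apoc4* (1.99 and 1.00), *apoda.1* (1.19 and 0.83), and *apoda.2* (1.84 and 0.03) passed in WT, and in the mutant their edgeR adjusted p ran from 0.0517 to 0.940. *apoa4b.2*, with 0.21 in WT and -0.69 in the mutant, and *apol1*, with 0.12 and -0.35, did not pass in either. In HS, *apoa4b.2*, *apoa4b.3*, and *apol1* were higher in the mutant, by log2 1.30, 1.20, and 0.87 (edgeR adjusted p = 0.0181, 0.00914, and 0.0193). These were the only 3 of the 11 called in HS, beside 1701 of 23452 genes called higher. Of the 11, 7 lay above 0 and 4 below, with a median of 0.12, beside 0.06 for all genes.

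Among the related lists, the liver plasma proteins, which are also secreted, had a median of 1.70 in WT, near the 1.60 of the 9 apolipoproteins, and of 1.36 in the mutant, against 0.38 for the 9. Of these 20 genes, 17 were MB-enriched in WT and 13 in the mutant, with 0 HS-enriched. No test was made between the lists. *rbp4*, the retinol carrier and the most abundant of them, had 0.61 and 0.44 and passed in neither. The cytosolic lipid-binding proteins, which bind lipid but are not secreted, lay on the other side, with medians of -0.99 and -1.35 and 4 and 8 of 9 called on the HS side. Of these, *fabp2*, the intestinal fatty acid-binding protein, had -0.94 in WT (edgeR adjusted p = 0.129) and -1.69 in the mutant (edgeR adjusted p = 0.00382).

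Of 17 genes of lipoprotein assembly, 5 were MB-enriched and 1 HS-enriched in WT, and 4 and 1 in the mutant. *mttp*, which loads lipid onto ApoB in the ER, had log2 1.35 (edgeR adjusted p = 0.0458) and 0.97 (edgeR adjusted p = 0.0185). *sar1b*, a GTPase of the vesicles that leave the ER, had 0.71 (edgeR adjusted p = 0.0374) and 0.24 (edgeR adjusted p = 0.431). *pla2g12b*, needed for the secretion of large lipoproteins, had 0.81 and -0.33 and passed in neither. The most abundant, *pdia3*, an ER disulfide isomerase, had -0.34 (edgeR adjusted p = 0.261) and -0.82 (edgeR adjusted p = 0.0393). Within HS or MB, none of *mttp*, *sar1b*, and *pla2g12b* passed between genotypes. Still, *pla2g12b* had 18.2 to 87.3 CPM in WT HS and 137 to 265 CPM in mutant HS, without overlap. Of the 17 genes, 1 was called lower and 0 higher in mutant HS, with log2 mutant over WT from -2.64 to 1.53. In MB, 0 were called on either side.

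On the receiving side, 11 of 16 lipoprotein receptor genes were MB-enriched and 1 HS-enriched in WT, and 9 and 2 in the mutant. *lrp1aa*, an endocytic receptor, had log2 1.22 (edgeR adjusted p = 0.0121) and 1.18 (edgeR adjusted p = 0.0153). Of 15 lipase and remodelling genes, 9 in WT and 8 in the mutant were MB-enriched and 0 HS-enriched. *abca1b*, a cholesterol exporter, had 1.27 (edgeR adjusted p = 0.0184) and 1.81 (edgeR adjusted p = 0.00130). The cell type markers were mixed. The hepatocyte list had 2 called on each side in WT and 1 MB-enriched and 2 HS-enriched in the mutant. The enterocyte list had 4 on the MB side in both, with *chia.2* at 1.83 and 1.12, and 0 and 2 on the HS side. The macrophage and microglia list had 5 and 3 of 12 MB-enriched and 0 and 1 HS-enriched, with *slc7a7* at 1.71 and 1.37.

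**Figure D5:**
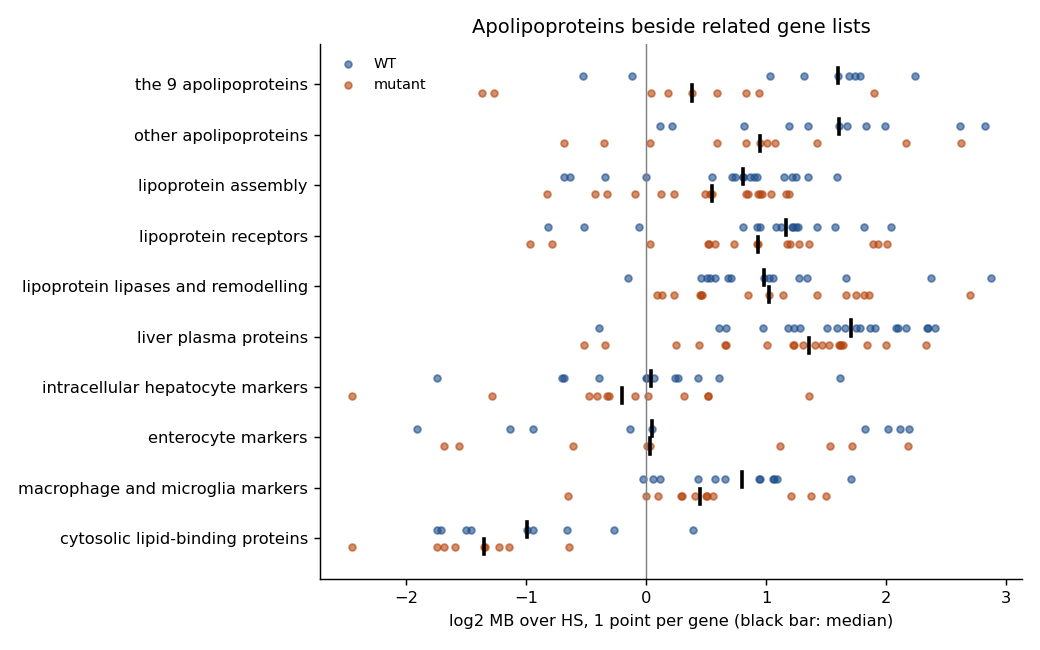
Log2 MB over HS (horizontal axis) of each gene of the 9 apolipoproteins and of 9 related lists in WT (blue) and mutant (orange), with 1 point per gene and the median as a black bar. The medians of the 9 apolipoproteins are 1.60 and 0.38, those of the liver plasma proteins 1.70 and 1.36, and those of the cytosolic lipid-binding proteins -0.99 and -1.35.

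Over the 12 libraries, which share fraction, genotype, and depth, the levels of *apobb.1* went most closely with *apoc1* (Pearson's r of log2 CPM 0.96) and those of *apoa1a* with *apoea* (r = 0.86), whereas *apobb.1* and *apoea* had r = -0.38. In the RefSeq annotation of assembly GRCz12tu, *apoa4b.1*, *apoeb*, *apoc1*, *apoa2*, and *apoc2* lie together within a stretch of 10 protein-coding genes, of which 8 have apolipoprotein symbols, and each of the other 4 members is on a chromosome with none of the rest. Among 15779 genes with more than 1000 counts in each genotype, those whose levels were most like *apobb.1* were *tmem94* (r = 0.99), *cpb2* (0.99), *ADCY7* (0.99), *amfra* (0.99), and *slc2a11a* (0.98). For *apoa1b* they were *TM7SF3* (0.97), *PLPP2* (0.97), *DBT* (0.96), ENSDARG00000117337 (0.96), and *tbxas1* (0.96). These r are descriptions over 12 libraries of 4 groups.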

How the data were processed

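Polyadenylated RNA of 12 libraries was analysed, 3 per genotype and fraction. From stranded paired reads of 75 nt, with 2 μg of RNA per library, the authors estimated expected counts per gene with Salmon 1.4.0 against spliced GRCz11 (danRer11) transcripts with Ensembl annotation and ERCC spike-ins. The deposited expected counts were not scaled to library size, and 30.5% of them are not whole numbers. The tables hold 31778 genes and 92 spike-ins, with no columns of the authors' own comparisons, and 0 value columns were left unused. Symbols came from a reference table for 25808 genes and from the study's supplement for 3343, and 2627 genes have none.

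After rounding, the genes tested were those above 50 counts over the 6 libraries of a genotype (in each genotype for the fit of 12). Tests were made by edgeR 4.0.16 (R 4.3.3) with TMM and quasi-likelihood F tests, called at a Benjamini-Hochberg adjusted p of at most 0.05 over all genes. MB was compared with HS in each genotype. Mutant was compared with WT in each fraction, and the fraction ratios between genotypes, in a single fit of 12 libraries. SE is the log2 change over the square root of F, and a 95% interval is the change with 1.96 SE on each side. This interval makes no allowance for the few libraries and can be too narrow. For the genotype difference of *apoa1a* it ran from -2.05 to -0.084, although the unadjusted edgeR p was 0.0531. CPM in the long and short contrast have a prior count of 0.5. The contrast was first set up with the median level of the short genes, and the median of the single differences was added after seeing the data, as was leaving WT HS replicate 1 out of the contrast with the mean. No source says that replicates are separate pools of larvae, so p measures only the spread between these libraries. Counting error is small at this depth.

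The replicate numbers were read as pairing both fractions within a genotype, since deviations from group means over 18832 genes correlated between same numbers at 0.605, 0.580, and 0.496 in WT and 0.318, 0.302, and 0.550 in the mutant. WT replicates 2 and 3 also correlated across numbers, at 0.528 and 0.368, so the pairing of these replicates in WT is not settled.

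The members, lists, and tests were chosen with earlier results of these data known. Named genes are the mutated gene, the 9 members, all other listed apolipoproteins, *mttp*, *sar1b*, and *pla2g12b*, the most abundant gene of each other list, and the 5 genes most correlated with *apobb.1* and with *apoa1b*. The result for a gene that this rule names is not reported here. *fabp10a* and *fabp2* are each on more than a single list. Of 200 genes changed in simulated counts, edgeR recovered 199 of them in WT (with 16 false calls, 23851 genes) and 197 in the mutant (10, 23751 genes). It recovered 169 for the difference between genotypes (4, 23617 genes), 199 in HS (12, 23594 genes), and 197 in MB (6, 23637 genes). The simulated log2 changes had a few fixed sizes, and all genes had the same simulated spread. Every simulated size was larger than each main log2 value of the 9 members, with *apobb.1* in WT as the exception. The numbers recovered are not split by the size of the change. They therefore give no rate of recovery, in any comparison, for changes as large as those of the 9 members. Recovery at the size of the genotype differences of the 9 members was not tested. Alternatives were DESeq2 1.42.0, library totals, spike-in totals, TMM without mtDNA genes or without the members, tests without a filter or with a minimum of 10 counts in each library, other sets of libraries in the fit, the replicate block, and each library left out. Transcript lengths were not used here, so CPM do not compare numbers of transcripts between genes. Where a gene is called most abundant or scarce, this refers to CPM alone. The level of *apobb.1* against the short genes within a library also depends on lengths. Figures were drawn with matplotlib in Python.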

Additional observations from a re-analysis of the deposited data

How the results depend on the processing

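In WT, the number of the 9 genes called as enriched was 5. It was 9 with spike-in totals (17823 of 23733 genes in all) and 9 without replicate 1 of both fractions (16219 of 23143). DESeq2 and library totals each gave 7 (8430 and 9674 of 23733), as did all 12 libraries in the fit (7793 of 23452). When single libraries were left out, it was 0 to 8, with 0 to 13627 genes in all. In the mutant, 5 became 3 with all 12 libraries in the fit (8188 of 23452 genes in all). It was 5 with DESeq2 (10008 of 23854) and 2 to 7 without single libraries (5014 to 11939 genes in all). Between genotypes in HS, 4 became 9 with spike-in totals (13006 of 23452 genes in all) and 0 with the HS libraries alone (0 of 20985). It became 6 with DESeq2 (6355 of 23452), 3 with library totals (3742 of 23452), and 2 without replicate 1 of both WT fractions (3749 of 23049). Without single libraries, it became 1 to 4, with 1932 to 5441 genes in all. Under the replicate block, 7 were called in WT, 5 in the mutant, and 0 for the difference between genotypes. Over all genes, the block gave 9105 of 23733, 11836 of 23854, and 796 of 23452 in the same order. With the median level of the short genes in each library, the excess of *apobb.1* was 1.41 in WT and 2.06 in the mutant. In the mutant it was 1.80 with their mean, and 1.499 as the median of the differences from single genes, a summary chosen after seeing the data. The first of these measures was 1.05 to 1.67 in WT and 1.964 to 2.198 in the mutant without single libraries.

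Spike-in totals moved the median of all genes to 2.62 in WT and 1.92 in the mutant (MB over HS), and to 1.82 in HS and 1.08 in MB (mutant over WT). Under them the sign turned for *apoa1a* (2.33) and *apoea* (1.94) in WT, *apoa1a* (0.51) and *apoea* (0.51) in the mutant, and *apoa2* (0.92) and *apoc1* (0.80) in MB. Library totals moved the medians to 0.58 and 0.81 and turned *apoa1a* in WT (0.37), the genotype difference of *apobb.1* (0.027), and *apoa2* (0.24) and *apoc1* (0.037) in MB. Without replicate 1 of both WT fractions, *apoa4b.1* (-0.085), *apobb.1* (-0.011), and *apoea* (-0.064) turned in MB. Without single libraries, values crossed 0 for *apoa1a* in WT (-0.31 to 0.10), *apoa1b* (-0.16 to 0.83) and *apoeb* (-0.28 to 0.40) in the mutant, the genotype difference of *apobb.1* (-0.57 to 0.12), and in MB *apoa2* (-0.27 to 0.073), *apoa4b.1* (-0.098 to 0.46), *apobb.1* (-0.021 to 0.45), *apoea* (-0.086 to 0.089), and *apoeb* (-0.013 to 0.45). Of 846 values of single genes under an alternative, 728 kept their direction and side of the threshold, 55 no longer passed, 36 newly passed, and 27 turned sign. Where settings changed a value, the cause was not tested, and some fits also had fewer libraries. Among the 3 libraries of a group, the level of a member differed by up to 4.24-fold, in WT HS. The effect of depth was not tested.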
